A study of Drosophila melanogaster with 6 samples.

Results

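Antimicrobial peptide genes of Drosophila melanogaster encode short secreted peptides that kill bacteria or fungi. The set was taken as a list of 10 genes: Listericin, Drs, Mtk, Def, DptA, DptB, AttC, AttD, Dro and CecC. Of these, 8 had a probe set among the 10862 genes measured, each with 1 probe set. The platform annotation named 6 of the 8, and DptA and Dro were named through probe set identifiers that RefSeq (assembly Release 6 plus ISO1 MT) lists among their synonyms. That route gave the platform's own gene for all 113 probe sets named both ways. AttC and CecC had no named probe set and were not analysed here. By RefSeq, 6 measured genes lie on chromosome arm 2R, Drs lies on 3L and AttD on 3R.

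As background, the larval fat body, the functional counterpart of liver and adipose tissue, releases most of these peptides into the hemolymph, and gut and other epithelia make them locally. The Imd pathway senses peptidoglycan through the receptors PGRP-LC and PGRP-LE and activates the NF-kappaB factor Relish, which drives diptericin, drosocin and attacin genes. The Toll pathway is started by the cytokine Spatzle, frees Dif and Dorsal from the inhibitor Cactus, and drives drosomycin. Many of these genes respond to both pathways.

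RNA was measured on 6 single-colour Affymetrix arrays. The 3 control arrays held RNA of wild type larvae of the strain written as cancon S. The other 3 held RNA of mle/mle homozygous larvae. The gene mle (maleless) encodes an RNA helicase of the complex that raises transcription of the male X chromosome. By RefSeq mle lies on 2R, the arm of 6 of the 8 measured antimicrobial peptide genes. All larvae were in the last larval instar. The labels call the mutant larvae male, say that they were picked by phenotype away from heterozygous larvae that carried Tb, and give neither the allele, the strain background of the mutants, the sex of the wild type larvae, the microbial state of the cultures nor the number of larvae per array. Strain, sex and culture therefore cannot be told apart from the genotype. The labels call the samples of a group biological replicates without saying what separates them, so p-values measure the spread between these RNA samples. In whole-larva RNA, fewer cells of a type and less RNA per cell cannot be told apart.

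Values are log2 signals per probe set made with RMA by the authors, where a difference of 1 is a doubling. Arrays correlated at 0.987 to 0.997 with each other over the 13966 tested probe sets, and both the small number of arrays and the spread of replicate 2 limit the precision. For mle itself the signal was 5.45 ± 0.10 (SD, n = 3) in wild type against 5.34 ± 0.08 (SD, n = 3) in the mutant. The log2 difference was -0.10 (SE 0.08, adjusted p = 0.9997 by limma). The mle probe set was dim, below the lower quartile of signals on all 6 arrays, so the arrays do not check the genotype. The fat body markers Lsp2 (13.81 to 13.97) and Fbp1 (12.58 to 13.18) were bright on every array, and the salivary gland marker Sgs7 read 13.92 to 14.23.

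Of the 8 antimicrobial peptide genes, 1 was lower and 0 were higher in mle/mle at an adjusted p under 0.05 (limma, two-sided, Benjamini-Hochberg over all probe sets), where 0.0573% of all probe sets were called (0.0358% lower and 0.0215% higher). The lower gene was Listericin. At an unadjusted p under 0.05 there were 4, with Dro, DptA and Def higher and Listericin lower, against 4.32% of all probe sets (2.98% higher and 1.35% lower). For 3 genes, Listericin, Dro and DptA, the ranges of both groups were apart, against 8.36% of all probe sets (5.42% higher and 2.94% lower). The genes did not shift as a block: 5 differences were positive and 3 negative, and their median was 0.07 against 0.01 for all probe sets. The median size of a difference, whatever its sign, was 0.23 against 0.06. They also varied more between replicates, with a median SD within groups of 0.22 (0.11 to 0.47) against 0.11 for all probe sets. Both comparisons took all probe sets, dim ones included, and not those of like signal. Apart from AttD, the genes lay between the 57.3 and 89.6 percentiles of mean signal. The list was drawn up with earlier results of these data known, so these counts describe the genes and test nothing about the list.

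**Figure D1:**
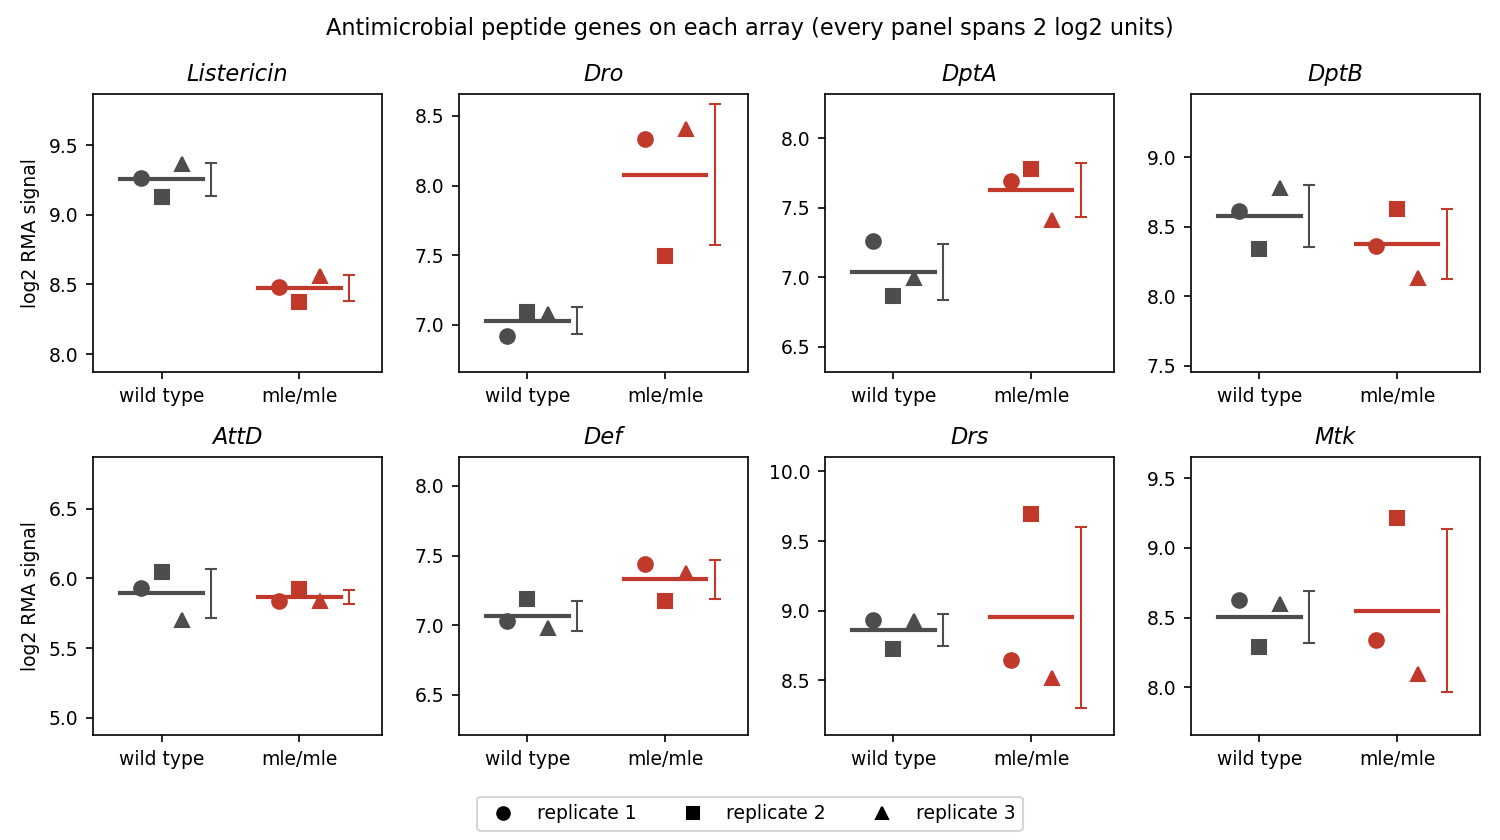
Log2 RMA signal of each measured antimicrobial peptide gene on the 6 arrays, with points shaped by replicate number, a line at the group mean and a bar of 1 SD (n = 3). Listericin, Dro and DptA separate the groups, while Drs and Mtk have 1 high array, mle/mle replicate 2.

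Listericin encodes an antibacterial peptide found to act against Listeria, and its induction in Drosophila needs PGRP-LE and the JAK/STAT pathway. In the order of replicates 1, 2 and 3, as for every gene, it read 9.26, 9.13 and 9.37 on the wild type arrays against 8.48, 8.37 and 8.56 on the mutant ones. Every mutant array lay below every wild type array. The means were 9.25 ± 0.12 and 8.47 ± 0.09 (SD, n = 3 each), so Listericin fell by 0.78 on the log2 scale (SE 0.09, 95% interval -0.99 to -0.58, adjusted p = 0.043 by limma), to 0.582 times the wild type signal. Within same-numbered arrays it was lower by nearly the same amount each time (-0.78, -0.75 and -0.80). The call was lost with 5 arrays in 4 of 6 cases. Without wild type replicate 1 the adjusted p was 0.32, without wild type replicate 3 it was 0.20, without mle/mle replicate 1 it was 0.30 and without mle/mle replicate 3 it was 0.17, while the difference stayed between -0.84 and -0.72.

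Dro encodes drosocin, a proline-rich peptide active against Gram-negative bacteria. Its signal was 6.92, 7.09 and 7.08 on the wild type arrays against 8.34, 7.50 and 8.40 on the mutant ones. All 3 mutant arrays were above the wild type arrays, and replicate 2 was the least so. The difference of 1.05 (SE 0.22, 95% interval 0.55 to 1.55), or 2.07 times, was the largest in size among the 8 genes and did not pass the test (adjusted p = 0.27 by limma). The mutant SD of 0.50 (n = 3), against 0.10 in wild type, came from that 1 array. Without mle/mle replicate 2 the difference was 1.34 and passed (adjusted p = 0.0016 by limma), with 1.04% of all probe sets called in that fit. Leaving out any other single array did not make it pass. The smallest adjusted p among those fits was 0.43 by limma, without wild type replicate 2.

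DptA encodes a diptericin, a peptide against Gram-negative bacteria whose gene is the usual readout of the Imd pathway. It read 7.26, 6.86 and 6.996 on the wild type arrays against 7.69, 7.78 and 7.41 on the mutant ones, again without overlap. The difference was 0.59 (SE 0.13, 95% interval 0.29 to 0.89, adjusted p = 0.32 by limma), or 1.5 times, and it was positive in all 3 same-numbered pairs (0.43, 0.91 and 0.42). Its neighbour on 2R and closest relative here, DptB, did not show this. DptB read 8.61, 8.34 and 8.78 on the wild type arrays against 8.36, 8.63 and 8.13 on the mutant ones, so the groups overlapped. Its difference was -0.20 (SE 0.15, 95% interval -0.55 to 0.14, adjusted p = 0.9997 by limma), and its sign turned between pairs (-0.25, 0.29 and -0.64). The difference between the responses of DptA and DptB was not tested.

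AttD, an attacin gene, read 5.93, 6.04 and 5.70 on the wild type arrays against 5.84, 5.93 and 5.84 on the mutant ones. Its difference was -0.02 (SE 0.10, 95% interval -0.25 to 0.20, adjusted p = 0.9997 by limma), and the groups overlapped. Of the 8 genes this one had the dimmest probe set, at the 26.1 percentile of mean signal, with 1 array below the lower quartile of its signals (5.80 to 5.84 over the 6 arrays). RMA compresses changes of dim probe sets, so a larger change could go unseen there.

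Def encodes defensin, which acts mainly on Gram-positive bacteria. It read 7.03, 7.19 and 6.98 on the wild type arrays against 7.44, 7.17 and 7.38 on the mutant ones. Replicates 1 and 3 of the mutant were above all wild type arrays, and replicate 2 was inside the wild type range. The difference was 0.26 (SE 0.10, 95% interval 0.04 to 0.48, adjusted p = 0.95 by limma), so it did not pass.

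The antifungal peptide genes Drs (drosomycin, the usual readout of the Toll pathway) and Mtk (metchnikowin) moved together from array to array and not with the genotype. Drs read 8.93, 8.73 and 8.93 on the wild type arrays against 8.65, 9.70 and 8.51 on the mutant ones. Mtk read 8.62, 8.29 and 8.60 on the wild type arrays against 8.34, 9.21 and 8.10 on the mutant ones. In both genes mle/mle replicate 2 was the highest of the 6 arrays while the other mutant arrays were near or below the wild type values. The differences were 0.09 for Drs (SE 0.28, 95% interval -0.54 to 0.72) and 0.05 for Mtk (SE 0.26, 95% interval -0.55 to 0.64), both with adjusted p = 0.9997 by limma. The mutant SDs were 0.65 and 0.59 (n = 3 each), against 0.12 and 0.19 in wild type. Without mle/mle replicate 2 both differences turned negative, to -0.28 for Drs and -0.29 for Mtk, neither past the test (adjusted p = 0.43 and 0.67 by limma). Mtk was also negative, at -0.06, without wild type replicate 2.

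**Figure D2:**
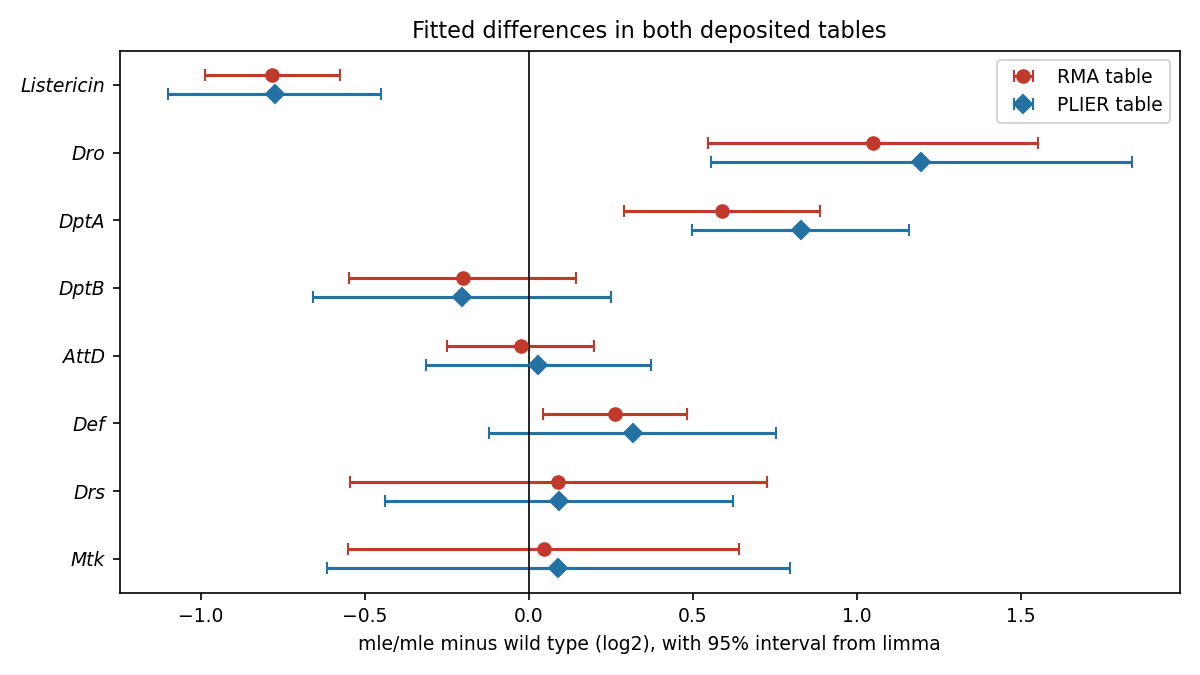
Fitted differences, mle/mle minus wild type, on the log2 scale with 95% intervals from limma, for the RMA table (circles) and the PLIER table (diamonds). The intervals of Listericin lie below 0 and those of Dro and DptA above 0 in both tables, before any adjustment for the number of probe sets.

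The authors also deposited the arrays as log2 PLIER signals, whose column names give the group through a final letter, read here as control or experiment, and no replicate number. In that table, in column order, Listericin read 8.40, 8.18 and 8.46 on the wild type arrays against 7.63, 7.34 and 7.74 on the mutant ones. Its difference of -0.77 (SE 0.14) was the same in size, but did not pass (adjusted p = 0.28 by limma). Dro read 5.69, 5.80 and 5.85 on the wild type arrays against 7.29, 6.26 and 7.38 on the mutant ones, a difference of 1.20 (SE 0.28, adjusted p = 0.48 by limma). DptA differed by 0.83 (SE 0.14, adjusted p = 0.26 by limma). The same 3 genes had groups that did not overlap, against 9.19% of all probe sets in that table. Def differed by 0.32, Drs and Mtk by 0.09 each, DptB by -0.20 and AttD by 0.03, none past the test. The PLIER table called 0 of the 8 genes by limma and 0.0286% of all probe sets, where 3 (Listericin, Dro and DptA) had an unadjusted p under 0.05 against 4.45% of all probe sets.

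The PLIER column names also carry 2 array codes, 1 on 4 arrays and the other on 2, both balanced over the genotypes. Listericin differed by -0.80 within the first code and by -0.72 within the second. For Dro these values were 1.03 and 1.53, and for DptA 0.95 and 0.58. These 3 genes thus kept their direction within both codes. Drs (0.32 and -0.36), Mtk (0.38 and -0.50) and DptB (0.04 and -0.69) turned between them, and Def differed by 0.09 and 0.77. The code of 2 arrays has 1 array per group and no replicate check. The second mutant column, in the code of 4 arrays, was the high one for Drs (9.19) and Mtk (8.98) and the low one for Dro (6.26). By these values the second mutant column matches mle/mle replicate 2, while no label places the other columns. If all columns run in the order of the replicates, the code of 4 arrays holds replicates 1 and 2, and the other code replicate 3. Read so, the codes are no check apart from the replicate numbers.

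**Figure D3:**
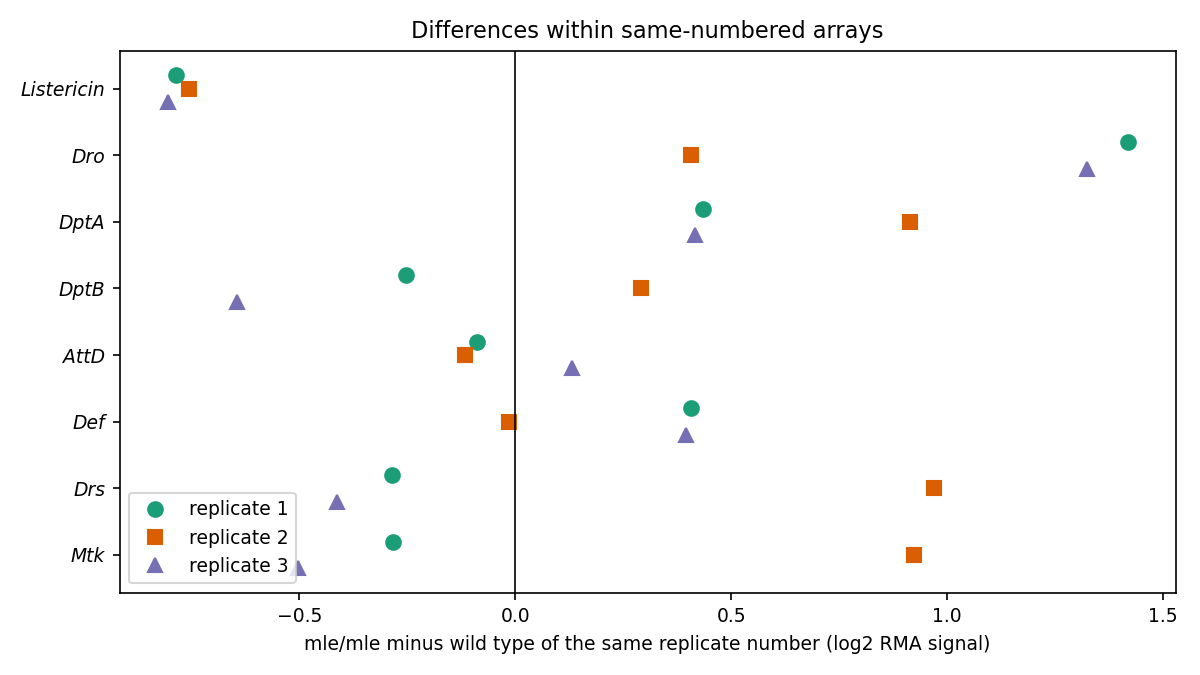
Difference between the mle/mle and the wild type array of the same replicate number, log2 RMA signal, for each measured antimicrobial peptide gene. Listericin is negative and Dro and DptA positive in all 3 pairs, while Drs, Mtk and DptB are positive in pair 2 only and Def is near 0 there.

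Same-numbered arrays shared deviations, so the differences were also read pair by pair. With the number as a block, 0.043% of all probe sets were called and Listericin was again the only one of the 8 genes (adjusted p = 0.037 by limma). Signs agreed over the 3 pairs for 3 genes (Listericin, Dro and DptA), and pair 2 went against pairs 1 and 3 for 4 (Drs, Mtk, DptB and Def). For Drs the 3 values were -0.29, 0.97 and -0.41, and for Mtk -0.28, 0.92 and -0.50. For Dro they were 1.42, 0.41 and 1.32, and for Def 0.41, -0.01 and 0.39. Replicate 2 of the mutant was therefore high in Drs and Mtk and held the smallest excess of Dro and Def over wild type.

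Without replicate 2 of both groups, 2 genes were higher and 1 lower at an adjusted p under 0.05 by limma, with 3.24% of all probe sets called in that fit (2.24% higher and 1.0% lower). Dro rose by 1.37 (SE 0.08, adjusted p = 0.00011), Def rose by 0.40 (SE 0.08, adjusted p = 0.026) and Listericin fell by 0.79 (SE 0.08, adjusted p = 0.0013). DptB differed by -0.45, Drs by -0.35 and Mtk by -0.39, with adjusted p of 0.051, 0.057 and 0.069 by limma. DptA differed by 0.43 (adjusted p = 0.12 by limma). This fit rests on 2 arrays per group, and it was chosen with the behaviour of replicate 2 known.

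Likeness between genes was measured as the root mean square difference of their log2 values over the 6 arrays, each gene centred on its own mean. Drs and Mtk were the closest of all pairs of the 8 genes, at 0.07, followed by Def and AttD at 0.19 and by Mtk and DptB at 0.25. The measure is also small between genes that vary little over the arrays. Def and AttD varied less than Drs and Mtk, so their small value does not mark a shared pattern. Dro and Listericin were the farthest apart, at 0.95. The paralogue Drsl5 followed the pattern of Drs with a wider range. It read 9.96, 9.14 and 10.07 on the wild type arrays against 9.23, 11.11 and 9.32 on the mutant ones, with a difference of 0.16 (SE 0.48, adjusted p = 0.9997 by limma). Without replicate 2 of both groups it fell by 0.75 (adjusted p = 0.0018 by limma).

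**Figure D4:**
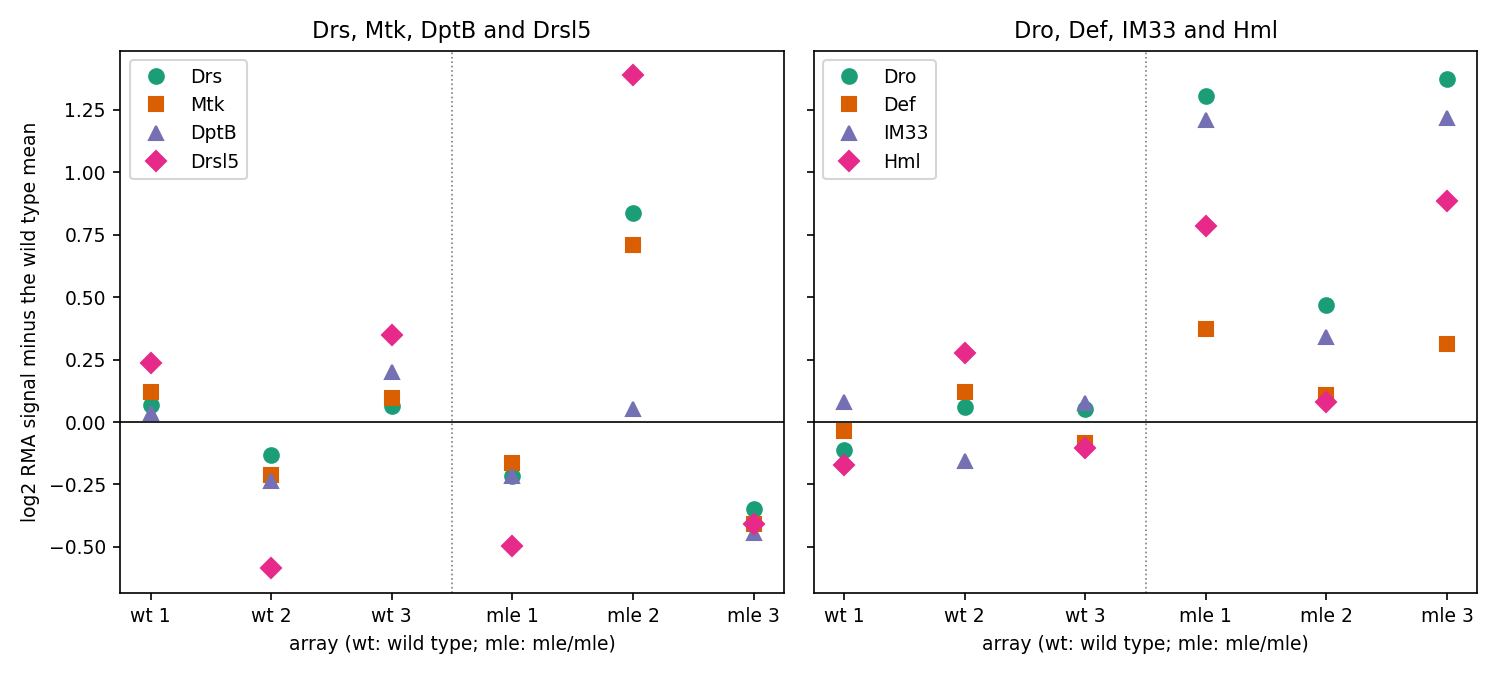
Log2 RMA signal on each array minus the mean of the wild type arrays, for Drs, Mtk, DptB and Drsl5 (left) and for Dro, Def, IM33 and Hml (right), genes grouped after their values were seen. Drs, Mtk and Drsl5 are highest in mle/mle replicate 2, where Dro, Def, IM33 and Hml are nearest to wild type.

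The probe sets most like Listericin over the 6 arrays, among 1527 with an SD of at least 0.2, were those of CG34227 (root mean square difference 0.11), CG15155 (0.12), Cyp6a9, a cytochrome P450 gene (0.13), CG17134 (0.13) and CG10621 (0.13). Of these, Cyp6a9 passed the test (-0.90, SE 0.09, adjusted p = 0.021 by limma), and CG34227 did not (-0.62, SE 0.09, adjusted p = 0.095). The mean profile of the 8 genes was flatter, from -0.13 in wild type replicate 2 to 0.19 in mle/mle replicate 2. Its closest probe sets were those of GstT3, a glutathione transferase gene (0.10), CG18528 (0.10), CG7115 (0.11), CG18268 (0.11) and Sytalpha (0.12). None of them passed the test. These differences were about as large as the SD of the mean profile itself over the 6 arrays (0.11). Candidates needed an SD of at least 0.2, so probe sets as flat as the mean profile were left out. The values therefore do not mark a shared pattern with the antimicrobial peptide genes.

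Other immune genes were read from 6 lists of pathway members, with 69 measured genes in all. By limma 0 were called. An unadjusted p under 0.05 was seen for 11, 7 higher and 4 lower, where 4.32% of all probe sets had one. For 13 the groups did not overlap, 8 higher and 5 lower, against 8.36% of all probe sets. The lists were drawn up with earlier results known, so these counts are a description. When pair 2 was left out 7 were called, where 3.24% of all probe sets were (2.24% higher and 1.0% lower). Those were IM33 and pirk, higher, and Drsl5, BomS6, BomT2, PGRP-SC2 and BomS5, lower. BomS5 is named here after its values were seen.

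Among 9 measured Bomanins and other immune-induced peptides, 3 differences were positive and 6 negative, with a median of -0.002. Bomanins are short peptides induced by Toll signalling. IM33, an immune-induced secreted peptide gene, read 9.94, 9.70 and 9.94 on the wild type arrays against 11.07, 10.20 and 11.08 on the mutant ones, a pattern over arrays like that of Dro. Its difference was 0.92 (SE 0.22, adjusted p = 0.44 by limma), and 1.13 without replicate 2 of both groups (adjusted p = 0.00014). The Bomanins BomS6 (-0.53, adjusted p = 0.27 by limma) and BomT2 (-0.51, adjusted p = 0.81) were lower in level and BomBc3 (0.22, adjusted p = 0.87) higher, none past the test. Without replicate 2 of both groups BomS6 fell by 0.67 (adjusted p = 0.0094) and BomT2 by 0.79 (adjusted p = 0.0018). In the PLIER table BomT2 differed by only -0.10 (SE 0.18). Of the 4 other antimicrobial peptide genes measured, CecB, a cecropin, differed by -0.11 and the male-specific Anp by -0.05. Some of these probe sets were dim. CecB was below the lower quartile of signals on 5 of the 6 arrays, BomS6 on 4 and BomT2 on 2.

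Of the 20 measured Imd pathway genes, 12 differences were positive and 8 negative, with a median of 0.01 and 0 calls. PGRP-SC2, an amidase that degrades peptidoglycan and dampens the pathway, read 11.38, 11.36 and 11.60 on the wild type arrays against 11.03, 11.01 and 11.09 on the mutant ones. The groups did not overlap and the difference was -0.41 (SE 0.09, adjusted p = 0.28 by limma). pirk, an inhibitor that is itself induced by the pathway, read 7.41, 7.33 and 7.60 on the wild type arrays against 7.88, 7.59 and 8.04 on the mutant ones (0.39, SE 0.13, adjusted p = 0.80 by limma). Without replicate 2 of both groups both passed, at -0.43 for PGRP-SC2 (adjusted p = 0.045) and 0.45 for pirk (adjusted p = 0.041). PGRP-SB1, a further amidase, differed by 0.31 (adjusted p = 0.60) and PGRP-LB, which also degrades peptidoglycan, by -0.14. Rel, which encodes Relish, differed by 0.29 (SE 0.19, 95% interval -0.15 to 0.72), and the receptor gene PGRP-LE by -0.06, with adjusted p = 0.9997 for both by limma.

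The 19 measured Toll pathway genes had a median of -0.003, with 9 positive, 10 negative and 0 called. The largest shifts by p were in nec (0.18), a serpin that restrains Toll activation, and in spz (0.22), which encodes the ligand Spatzle, both at adjusted p = 0.9997 by limma. The inhibitor gene cact differed by -0.16, the adaptor gene Traf6 by -0.13 and the NF-kappaB gene Dif by -0.03. Dif has a dim probe set, between 4.37 and 4.51 on all arrays. The 11 measured JAK/STAT genes had a median of 0.02, with 0 called. There the receptor gene dome differed by -0.12, the transcription factor gene Stat92E by 0.14, the complement-like gene Tep2 by 0.16 and the virus-induced gene vir-1 by -0.22. Of 6 other regulators, with a median of 0.07 and 0 called, the GATA factor gene srp differed by 0.31 and pnr by 0.10, and foxo by -0.03 and nub by -0.02. The probe sets of srp (4.98 to 5.73) and pnr (4.30 to 4.61) were also dim, below the lower quartile of signals on all 6 arrays.

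**Figure D5:**
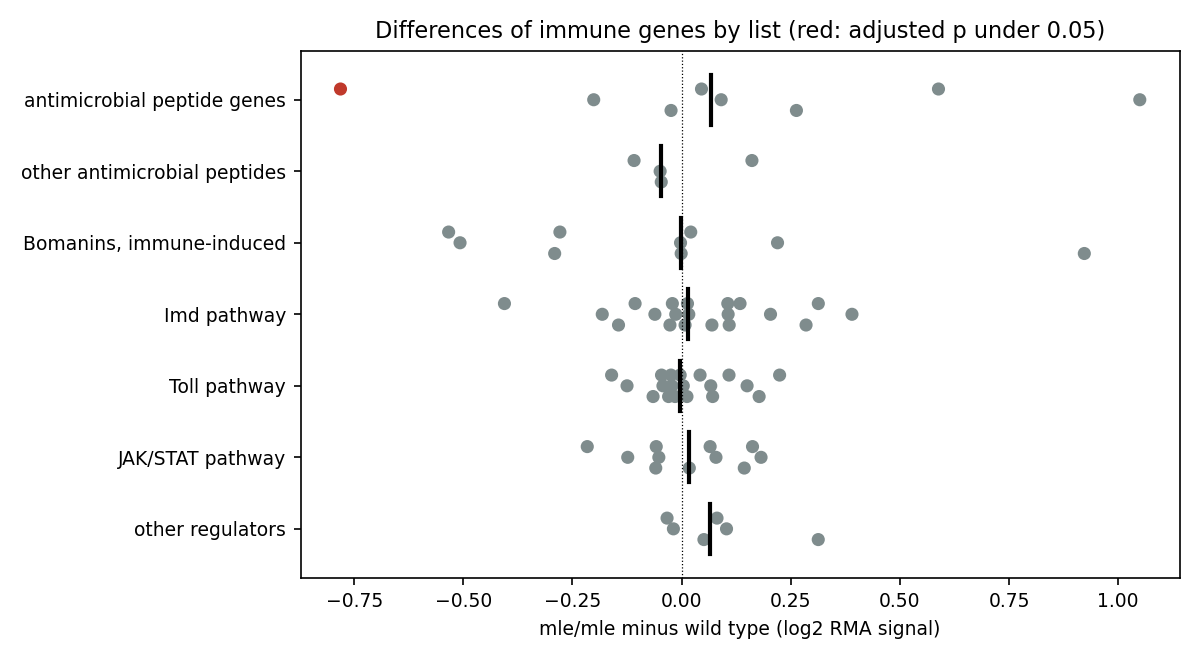
Differences, mle/mle minus wild type on the log2 scale, for every measured gene of the antimicrobial peptide set and of the 6 other immune lists, with a line at each median. The medians of the 6 other lists lie between -0.05 and 0.07, and Listericin is the gene called.

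Markers of tissues and of larval age were read beside these genes, since whole larvae mix them. Over the 9 of 10 hemocyte markers measured, the mean log2 signal was 6.40, 6.55 and 6.33 on the wild type arrays against 6.76, 6.50 and 6.80 on the mutant ones, high on the same mutant arrays as Dro, Def and IM33. All 9 differences were positive and 0 were called, and the hemocyte gene Hml read 6.78, 7.23 and 6.85 on the wild type arrays against 7.74, 7.04 and 7.84 on the mutant ones. The markers NimC1, Sr-CI, eater and lz were dim, below the lower quartile of signals on all 6 arrays. Of these, lz was highest in mle/mle replicate 2, and Sr-CI read higher there (5.63) than in mle/mle replicate 1 (5.56). The collagen gene vkg, the brightest on that list, differed by 0.35 and the peroxidase gene Pxn by 0.25. The fit without replicate 2 of both groups called 2.24% of all probe sets higher by limma, Dro and Def among them. Of the hemocyte markers it called 4 higher. These were Hml (0.97, adjusted p = 0.00045), vkg (0.64, adjusted p = 0.0086), Pxn (0.39, adjusted p = 0.027) and the prophenoloxidase gene PPO2 (0.38, adjusted p = 0.040). Their part in the values of Dro and Def was not tested. The glue and Eig71E genes were read together as markers of salivary gland and larval age (16 of 18 measured). Their mean log2 signal was 9.04, 9.50 and 9.04 on the wild type arrays against 8.36, 9.13 and 8.43 on the mutant ones. Replicate 2 had the highest mean of each group there, but in wild type the glue genes did not all share this. Sgs4, Sgs5, Sgs8 and Sgs5bis (11.83, 11.19 and 11.94) were lowest in wild type replicate 2, while Sgs1 and Sgs3 were highest there. The Eig71E genes Eig71Ea (7.30, 8.70 and 7.63) and Eig71Ed (6.93, 8.60 and 6.80) were also highest on that array. All 16 differences were negative, with a median of -0.33, and among them Sgs8 differed by -0.49 and Sgs7 by -0.15. Eig71Eh, Eig71Ei, Eig71Ej and Eig71Ek were dim, below the lower quartile of signals on all 6 arrays. By limma 0 of the 16 were called. Without replicate 2 of both groups 9 were called lower, where 1.0% of all probe sets were. With the replicate block Eig71Ed was called lower (-0.90, adjusted p = 0.021 by limma), where 0.043% of all probe sets were called. The part of larval age in the antimicrobial peptide values was not tested. The 5 of 9 fat body markers measured had means of 11.94 to 12.10 in wild type and 11.96 to 12.25 in mle/mle, which overlapped. For midgut the 9 of 10 measured had means of 11.70 to 11.88 and 11.92 to 12.07, led by Jon65Aiv and LysB, which differed by 0.03 and 0.13. The midgut means did not overlap between the groups, though the values of Jon65Aiv and of LysB did. On that list 7 differences were positive and 2 negative. The 1 gene called, against 0.0573% of all probe sets, was the amylase gene Amy-d, which rose by 1.30 (adjusted p = 0.0076 by limma). Amy-d had the largest difference on the list and is part of the midgut means, so their separation does not mark a shift of every gene. The protease genes Jon44E (0.81) and betaTry (-0.58) had groups that did not overlap, in opposite directions, at adjusted p = 0.095 each by limma. The part of the gut in the antimicrobial peptide values was not tested. No marker was at 0, and these arrays give no detection call.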

How the data were processed

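The authors deposited log2 signals per probe set from RMA (the tool named in the submitters' processing notes) and also log2 PLIER signals, whose offset per the file headers was 16. Their versions are not given in the sources used here. Of 14010 probe sets, 44 array controls were left out. The platform annotation gave 12442 of the 13966 tested 1 symbol, 327 several and 1197 none. Symbols were brought to RefSeq through Entrez IDs for 12393, and 20 unlisted probe sets were named through RefSeq synonyms. The brightest probe set stood for a gene in list counts. Coordinates are left out, since no genome build is named for the arrays, and no sequence table was used here.

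Groups were compared by lmFit and eBayes in limma 3.58.1 (R 4.3.3) over all probe sets, after a test on simulated data, with Benjamini-Hochberg adjustment and calls at an adjusted p under 0.05. Tables and figures used Python 3.11.15, pandas 2.3.3 and matplotlib 3.10.9. The genes and lists, and the fit without replicate 2, were chosen with earlier results of these data known. The naming rule took all 10 genes of the set, the 2 genes of each immune list with the smallest p in each direction, 6 well known regulators (PGRP-LC had no named probe set), the 5 probe sets most like Listericin and like the mean profile, and the 2 brightest genes of each marker list. Hml, PPO2, BomS5, Amy-d, Jon44E, betaTry and the neighbouring genes in the closing section were named after their values were seen. So were Sgs1, Sgs3, Sgs4, Sgs5, Sgs5bis, Eig71Ea, Eig71Ed and the dim markers NimC1, Sr-CI, eater, lz, Eig71Eh, Eig71Ei, Eig71Ej and Eig71Ek.

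Sample titles number the replicates 1 to 3 in each group, and arrays of one number deviated together from their group means (r = 0.17, 0.28 and 0.52 across probe sets). On that basis the numbers were taken as pairs, though what a number stands for is not in the labels. Alternatives were the PLIER table, its array code as a block and within codes, quantile normalization, centring, a dim filter, the replicate block, another variance model, stricter thresholds, averaging a gene's probe sets, and leaving out arrays.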

Additional observations from a re-analysis of the deposited data

How the results depend on the processing

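Listericin stayed lower under every alternative tried (-0.84 to -0.72), and Dro, DptA and Def stayed higher. The call of Listericin was lost in the PLIER table (-0.77), there also once its array codes were blocked (-0.77), and within the code of 4 arrays (-0.80, 2 per group). In those fits, at an adjusted p under 0.01 and at an absolute log2 difference of at least 1, 0 antimicrobial peptide genes were called. Without replicate 2 of both groups 3 were called, with Dro at 1.37 and Def at 0.40 newly past the threshold, and 7 genes of the other immune lists. In that fit Drs (-0.35), Mtk (-0.39), AttD (0.022), Drsl5 (-0.75), foxo (0.11) and Dif (3.1e-06) changed sign, and the median of the antimicrobial peptide genes was -0.16. Within the code of 4 arrays the median was 0.21, with DptB at 0.038, AttD at 0.00027, CecB at 0.030, BomT2 at 0.087, foxo at 0.26 and nub at 0.24, all of turned sign. Within the code of 2 arrays the median was -0.14, with Drs (-0.36), Mtk (-0.50), AttD (0.088), Drsl5 (-0.80), CecB (0.15), pnr (-0.21) and foxo (0.30) of turned sign, and Def (0.77), DptB (-0.69) and Dro (1.53) larger in size. In the PLIER table, with or without the code as a block, AttD (0.029), CecB (0.070), foxo (0.27) and nub (0.15) turned. For none of these was the cause tested.

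Leaving out 1 array at a time gave -0.84 to -0.72 for Listericin, 0.89 to 1.34 for Dro, 0.21 to 0.34 for Def, -0.33 to -0.08 for DptB, -0.28 to 0.31 for Drs, -0.29 to 0.27 for Mtk and -0.12 to 0.051 for AttD. It gave 0 to 2 called antimicrobial peptide genes, a median of -0.17 to 0.26, and 0 to 2 calls on the other immune lists. Drsl5 ran from -0.45 to 0.49, foxo from -0.11 to 0.079, nub from -0.062 to 0.018 and Dif from -0.051 to 0.0058. With the replicate block, which pairs same-numbered arrays, Listericin differed by -0.78 (adjusted p = 0.037 by limma), Dro by 1.05 (adjusted p = 0.17) and DptA by 0.59 (adjusted p = 0.18). The block changed no other call on the antimicrobial peptide genes or the immune lists. It gave 6 calls over all probe sets against 8 without it.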

Other observations

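The genes beside Listericin on arm 2R were read from the RefSeq gene order, 3 protein-coding genes on each side, after CG34227 had come out as the probe set most like Listericin. Of these 6 neighbours 4 had a probe set. CG34227 lies 3 genes from Listericin and read 12.45, 12.38 and 12.45 on the wild type arrays against 11.94, 11.64 and 11.84 on the mutant ones, with no overlap (-0.62, SE 0.09, adjusted p = 0.095 by limma). Without replicate 2 of both groups it fell by 0.56 (adjusted p = 0.0061 by limma). The gene between them with a probe set, CG13226, differed by -0.06 (SE 0.09), and on the other side CG13216 differed by -0.06 (SE 0.11). CG13215, next to Listericin, differed by -0.25 (SE 0.11), by -0.39 without replicate 2 of both groups (adjusted p = 0.054 by limma) and by -0.56 in the PLIER table, where CG34227 differed by -0.57.

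Beside Drs, the spectrin gene kst differed by 0.31 (adjusted p = 0.86 by limma) and rose by 0.47 without replicate 2 of both groups (adjusted p = 0.013 by limma). Over all 6 arrays the paralogue Drsl6 differed by -0.05, and beside Dro the genes jef and Rpn6 differed by -0.01 and -0.04, none past the test. Beside Mtk, 4 measured neighbours differed by 0.02 to 0.08.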
